A study of Mus musculus with 8 samples.

Results

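The complement genes C1ra, C1s1, C4b, C3, Cfb, Serping1, Cd55, Cd59a and Cd46 were followed in 8 bulk RNA-seq libraries from sorted mouse sarcoma cells. These 9 genes, chosen by name as components and regulators that mesenchymal cells make, were all found among the 35498 genes of the tables. The tumours grew from mesenchymal stem cells of C57BL/6 mice that lacked p53 and overexpressed Ccne1 (cyclin E1), changes that every group shared. The transformed cells had passed through tumours in a first set of mice, and after transduction they grew under the skin of secondary recipients, on polyurethane scaffolds, before digestion and sorting on a fluorescent marker. The sgMif cells carried Cas9 and a guide RNA against Mif (labelled Mif knockout), and the sgSCR cells carried Cas9 and a non-targeting guide. The shMif cells carried a short hairpin RNA against Mif (labelled knockdown), and the shSCR cells a control hairpin. Cas9 is given for the guide samples by the sample labels and for both systems by the series text. Age, sex and genotype of the recipients, the marker, the cut site in Mif and whether a line was 1 clone are not given. The question was how Mif made by the tumour, the cytokine macrophage migration inhibitory factor, affects programs inside the tumour cells.

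Each group held 2 libraries, with 19015919 to 51750901 reads on annotated genes. No label says whether the 2 were from separate mice, so the spread behind each p-value may be technical. The targeted gene was checked first. Mif stood at 221 and 222 CPM (counts-per-million units) in sgMif, against 377 and 455 CPM in sgSCR (log2 fold change -0.91 ± 0.32 SE, edgeR adjusted p = 0.215). It stood at 277 and 222 CPM in the libraries labelled shMif, against 170 and 375 CPM in shSCR (-0.13 ± 0.32, adjusted p = 0.925, and 0.70 between the single libraries of each in the high class defined below). The knockdown was therefore not borne out by the transcript, and these libraries are named by their label throughout. Mesenchymal markers (8 genes such as Col1a1, Vim and Fn1) summed to 29270 to 53270 CPM per library, so mesenchymal transcripts were abundant in all. The sum does not separate sarcoma cells from mesenchymal cells of the host. The libraries also differed in reads on olfactory receptor genes, which were over 1000 CPM in sgMif 1, both sgSCR, shMif 1 and shSCR 1 (the high class) and 389 to 576 CPM in sgMif 2, shMif 2 and shSCR 2.

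Complement is a cascade of plasma proteases that marks surfaces with fragments of C3. In the classical pathway C1q binds a target and activates the proteases C1r and C1s, which cleave C4 and C2 to form an enzyme that splits C3. In the alternative pathway factor B takes the place of C2 and amplifies C3 deposition. Liver cells supply most of the plasma pool, while fibroblasts and other mesenchymal cells make C1r, C1s, C3, C4, factor B and the C1 inhibitor locally, often more under interferon or inflammatory cytokines. Cells protect themselves with membrane regulators that undo the convertases or block the terminal pore.

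Among the members, C1ra and C1s1 lie next to each other on chromosome 6 (mm10, GENCODE annotation), at 124512405 to 124523443 on the plus strand and 124530345 to 124542359 on the minus strand. Between them lie 6901 bases and no protein-coding gene. C4b (chromosome 17, 34728380 to 34743882) and Cfb (34856374 to 34862518) lie on the minus strand of the class III region of the major histocompatibility complex, 112491 bases apart with 5 protein-coding genes between. The start of Cfb lies 85 bases from the end of C2, which is on the same strand. C3 lies farther along chromosome 17, at 57203970 to 57228136 on the minus strand. Cd55 (chromosome 1, 130439027 to 130462744) and Cd46 (195036826 to 195092249) are on the minus strand, the second 5132 bases from Cr1l. Serping1 (chromosome 2, 84765387 to 84775444, minus) and Cd59a (104095801 to 104115354, plus) complete the set, and Cd59b lies 4613 bases from Cd59a.

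The promoters of C3 and C1s1, on different chromosomes, are shown because both windows hold a match to a site form of the C/EBP factors. These factors act at many acute-phase genes. Both genes were lower in both sgMif than in both sgSCR libraries, as were C1ra, C4b, Cfb and Cd55. Regulation shared by these genes was not tested. The RefSeq sequences (GRCm38.p6, the mm10 build) are the 250 bases before each gene's start, read 5′ to 3′ on the gene's own strand, from chr17:57228137-57228386 (minus strand) and chr6:124542360-124542609 (minus strand). Capitals mark the match to TTGCNNAA on either strand.
C3: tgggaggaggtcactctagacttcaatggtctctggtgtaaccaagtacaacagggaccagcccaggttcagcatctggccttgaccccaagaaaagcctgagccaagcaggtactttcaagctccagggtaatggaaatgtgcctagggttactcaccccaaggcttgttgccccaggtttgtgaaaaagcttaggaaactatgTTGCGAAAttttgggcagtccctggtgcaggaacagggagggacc
C1s1: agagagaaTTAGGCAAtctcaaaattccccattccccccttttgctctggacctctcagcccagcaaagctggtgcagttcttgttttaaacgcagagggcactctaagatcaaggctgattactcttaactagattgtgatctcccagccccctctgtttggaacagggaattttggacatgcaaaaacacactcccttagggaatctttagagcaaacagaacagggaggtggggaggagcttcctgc
The C3 match begins 45 bases before the start, on the gene's strand, and the C1s1 match begins 242 bases before it, on the other strand. Of 32851 promoter windows of this length, 9.56% hold such a match. Searches on both strands for TTCNNNGAA (the GAS form bound by STAT dimers), an interferon response form (GAAA, any 2 bases, GAAA) and TATAAA (the TATA box) found no match in these 2 windows, against shares of 7.02%, 2.98% and 12.4% of all windows. C1ra, Cd55 and Cd46 had entries with none of the 4 motifs, and Cd59a had 1 match, to the interferon response form, beginning 187 bases before its start. C4b, Cfb and Serping1 had no entry and were not searched. A match of letters is a description of the window and not a measured site.

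The members spanned a wide range of levels. On the TPM scale (transcripts-per-million units, per transcript length), which allows genes to be compared, C1s1 had the highest mean over the 8 libraries at 69.4 TPM (range 41.1 to 136). C1ra followed at 33.6 TPM (19.3 to 60.5), then Serping1 at 16.0 (4.12 to 35.1), C3 at 14.5 (5.06 to 29.5), Cfb at 10.5 (3.80 to 15.6) and C4b at 5.19 (2.29 to 11.5). The membrane regulators were far lower, with Cd55 at 0.598 TPM (0.260 to 1.02), Cd59a at 0.207 (0 to 1.24) and Cd46 at 0.181 (0.0701 to 0.394). The order thus ran from the secreted classical proteases to the membrane regulators. Both libraries of C1s1 lay above both of C1ra in all 4 groups, and the same held for Cfb over C4b and C4b over Cd55. Some neighbours were not separated by their spread. C1ra and Serping1 overlapped in shMif, Serping1 and C3 in sgMif, sgSCR and shSCR, C3 and Cfb in shMif and shSCR, Cd55 and Cd59a in sgMif, and Cd59a and Cd46 in all 4 groups.

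TPM depends on how reads were divided among transcripts. A short C1s1 transcript held 3.44% of the C1s1 reads in sgSCR 2 but 49.9% of its TPM, and 3 short C3 transcripts held 9.62% of reads and 59.6% of TPM in shSCR 1. A retained-intron transcript of Cd55 held 20.5 to 84.1% of its reads. Levels between groups are therefore compared below by CPM of whole genes, with the TMM scaling of edgeR applied in the tests. The close copies of C1ra, C1s1 and Cd55 took few reads beside these members. C1rb (97.9% identical to C1ra over 2431 aligned bases) had 29 reads in all libraries together. C1s2 (95.9% identical to C1s1 over 2643) had 95 and Cd55b (91.6% identical to Cd55 over 1157) had 0. Cd59b (83.3% identical to Cd59a over 742) had 63 reads, more than the 30 of Cd59a. How reads of these copies were divided is not shown by the tables.

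**Figure D1:**
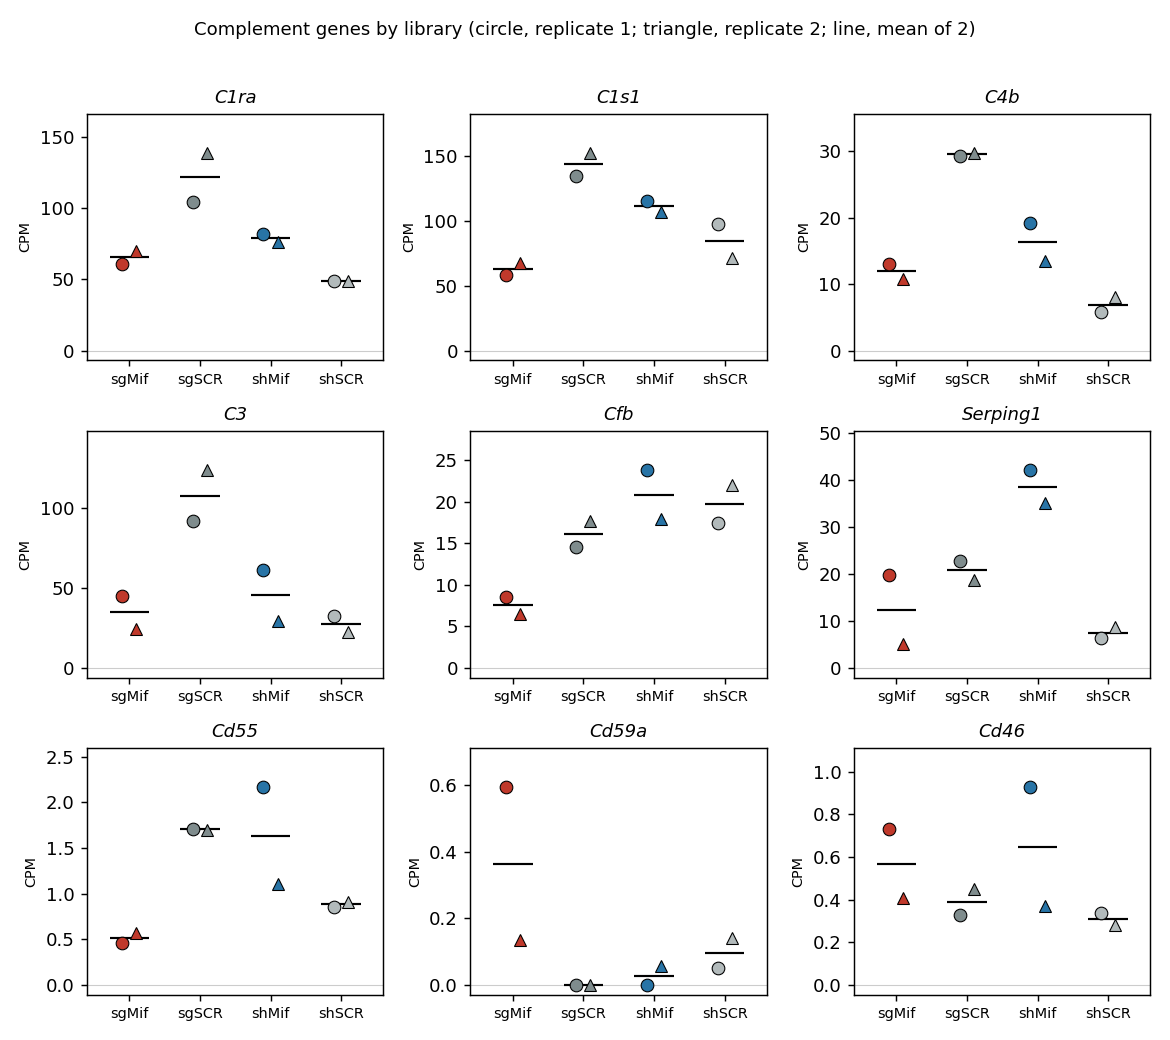
CPM of each complement gene (vertical axes, linear) in the sgMif, sgSCR, shMif and shSCR libraries (horizontal axes); circles are replicate 1, triangles replicate 2 and lines the mean of 2. For C1s1, C1ra, C4b, C3, Cfb and Cd55 both sgMif libraries lie below both sgSCR libraries, and for Serping1 both libraries labelled shMif lie above both shSCR libraries.

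Guide against control guide, sgMif against sgSCR, was compared first to see how complement genes stood after targeting of Mif. C1s1, the protease that cleaves C4 and C2, was lower and was the 1 member that passed the threshold. C1ra, C4b, Cfb, C3 and Cd55 were also lower in both sgMif than in both sgSCR libraries, without passing. Serping1 and Cd46 overlapped between the groups. The lower call of 1 of 8 tested members stands beside 0.619% of all 16309 genes called lower (0.987% called either way), and the 6 of 8 lower without overlap beside 24.2% of all genes. Of the 8, 6 had an unadjusted p under 0.05, beside 16.6% of all genes. The fold change was negative for 7 of 8, as for 50.5% of all genes, with a median of -1.15 on the log2 scale against -0.01 over all genes.

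C1s1 stood at 58.4 and 67.0 CPM in sgMif, against 134.7 and 152 CPM in sgSCR. The sgMif libraries were thus near each other and both less than the lower sgSCR library. The means were 62.7 ± 6.1 CPM in sgMif and 143 ± 12 CPM in sgSCR (SD, n = 2 each), a 2.28-fold fall (log2 fold change -1.19 ± 0.18 SE, edgeR adjusted p = 0.0333). In the high class, with sgMif 1 as its lone sgMif library, it was -1.29. The call was lost on leaving out sgMif 1 (adjusted p = 0.153), sgMif 2 (0.192), sgSCR 1 (0.145), sgSCR 2 (0.222), shMif 1 (0.0593) or shMif 2 (0.0629), and with counts scaled by transcript length (0.159). Its adjusted p ranged from 2.78e-08 to 0.222 over the alternatives run.

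C1ra, whose product activates C1s within the C1 complex, stood at 60.8 and 69.8 CPM in sgMif, against 104.5 and 138.5 CPM in sgSCR. Its fold change was -0.89 ± 0.17 (edgeR adjusted p = 0.0549), and -1.0 in the high class. The profiles of C1ra and C1s1 were the closest of any pair of tested members, with a root mean square difference of 0.331 between their centred log2 CPM over the 8 libraries. C3 and C1s1, whose promoters are shown above, were less alike (0.589), and the member closest to C3 was C4b (0.42). C4b encodes the C4 protein that C1s cleaves, and it stood at 13.0 and 10.8 CPM in sgMif, against 29.3 and 29.7 CPM in sgSCR (-1.31 ± 0.25, adjusted p = 0.0589, -1.18 in the high class). All 3 genes of the classical pathway thus had lower sgMif than sgSCR levels in every library, by 2.28-fold for C1s1, 1.86-fold for C1ra and 2.48-fold for C4b.

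C3, the component on which all pathways converge, stood at 45.1 and 24.2 CPM in sgMif, against 91.7 and 123 CPM in sgSCR. The 2 sgMif libraries differed more from each other than those of C1s1 did, and both lay below sgSCR. Its fold change was -1.64 ± 0.41 (edgeR adjusted p = 0.105), or -1.25 in the high class. Cfb, which encodes factor B of the alternative pathway, stood at 8.49 and 6.515 CPM in sgMif, against 14.5 and 17.65 CPM in sgSCR (-1.10 ± 0.25, adjusted p = 0.0827, -0.92 in the high class). DESeq2, which makes more calls here (6.07% of genes, either direction), called 5 members, namely C1s1, C1ra, C4b, C3 and Cfb, all lower.

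Serping1, which encodes the inhibitor that removes active C1r and C1s, stood at 19.7 and 5.005 CPM in sgMif, against 22.9 and 18.65 CPM in sgSCR. One sgMif library lay within the sgSCR range and the other far below it. The fold change of -0.76 ± 0.52 (edgeR adjusted p = 0.494) therefore rested on sgMif 2, and was -0.07 without that library, -2.05 without sgMif 1 and -0.08 in the high class.

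The membrane regulators had few reads. Cd55, which speeds the decay of C3 convertases, had 10 and 25 reads in sgMif (0.456 and 0.564 CPM), against 68 and 34 reads in sgSCR (1.71 and 1.695 CPM). Its fold change was -1.72 ± 0.59 (edgeR adjusted p = 0.201), but -0.47 with protein-coding transcripts alone, since most of its sgSCR reads were given to the retained-intron transcript. Cd46, a cofactor for cleavage of deposited C3 and C4 that in mice is known mainly from the testis, had 16 and 18 reads in sgMif, against 13 and 9 in sgSCR (0.54 ± 0.88, adjusted p = 0.791). Cd59a, which blocks the terminal pore, did not pass the filter on low counts and was not tested. It had 13 and 6 reads in sgMif, against 0 and 0 in sgSCR, so that most of these reads lay in 1 library. Its copy Cd59b had 3 and 14 reads in sgMif, against 0 and 11 in sgSCR. In sgMif 1, 56.3% of the Cd59a reads were given to a non-coding transcript.

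**Figure D2:**
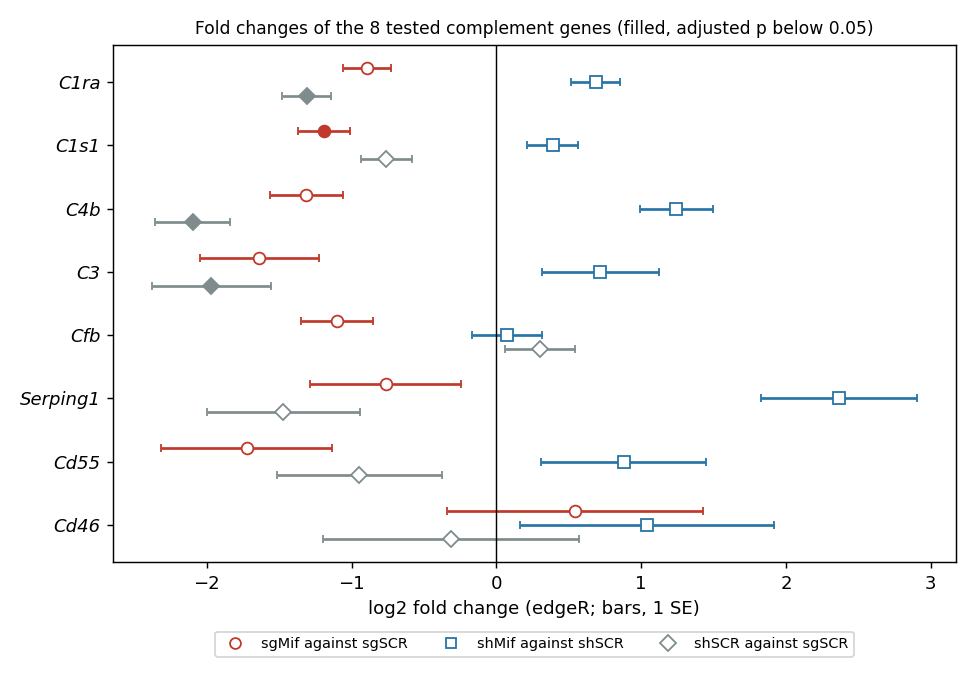
Log2 fold changes (horizontal axis) of the 8 tested members (vertical axis) in sgMif against sgSCR (circles), shMif against shSCR (squares) and shSCR against sgSCR (diamonds); bars are 1 SE from edgeR and filled symbols passed an adjusted p of 0.05. C1s1 is filled in the guide comparison and C1ra, C4b and C3 in the comparison of controls, and none is filled in the hairpin comparison.

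Most macrophage and host skin fibroblast markers were lower in sgMif too, while most mesenchymal markers were higher. Most endothelial markers had positive fold changes that rested on sgMif 1. Macrophage markers (12 genes) summed to 115 and 80.3 CPM in sgMif, against 374 and 164 CPM in sgSCR, and the C1q chains C1qa, C1qb and C1qc, which macrophages make, to 15.9 and 26.7 CPM, against 83.5 and 38.8 CPM. Of the 12 markers, 10 had reads in every library. Counted gene by gene, 8 of 12 were lower without overlap (24.2% of all genes), with a median log2 fold change of -1.33. Mrc1 (107 and 33.95 CPM) and Cd163 (103 and 24.9 CPM) gave much of the sgSCR sums. They were the 2 that passed in edgeR, where 0.619% of all genes were called lower. Lyz2 (0.47) and Cx3cr1 (3.20) went the other way. Cx3cr1 had 0 reads in sgSCR 1. Cd163, the macrophage receptor for haptoglobin and haemoglobin, had 0 reads in both sgMif libraries together, against 4580 in sgSCR (at least 623-fold lower), and stood at 0.0202 to 0.597 CPM in the hairpin libraries. Host skin fibroblast markers (8 genes, some of which sarcoma cells of mesenchymal origin can express) summed to 759 and 678 CPM in sgMif, against 1850 and 1642 CPM in sgSCR, with 7 of 8 lower without overlap and a median log2 fold change of -1.35. Of the 8, the 1 that passed was Dcn, the gene of a matrix proteoglycan (-2.18 ± 0.23, edgeR adjusted p = 0.0149). Endothelial markers (6 genes, of which Pecam1 gave most reads) summed to 159 and 34.0 CPM in sgMif, against 259 and 272 CPM in sgSCR, and to 50.8 CPM or less in the 3 libraries outside the high class. The lower sgMif sum rested on Pecam1 (log2 fold change -1.90 ± 1.06). The 5 other endothelial markers had positive fold changes, and the median of the 6 was 1.21. These 5 lay above both sgSCR libraries in sgMif 1 alone. In sgMif 2 they lay within or below the sgSCR range, so that all 5 overlapped. Cdh5 stood at 26.0 and 5.59 CPM in sgMif, against 7.14 and 7.48 CPM in sgSCR. None of the 6 passed in edgeR (0 at an unadjusted p under 0.05) or DESeq2. Mesenchymal markers stood higher in sgMif, with sums of 47430 and 48860 CPM, against 36380 and 38350 CPM in sgSCR. Of the 8, 6 were higher without overlap (27.1% of all genes) and the median was 0.38, with none passing in edgeR, 3 at an unadjusted p under 0.05 and Fn1 and Pdgfrb called by DESeq2. The part of macrophages, host fibroblasts, endothelial cells and the share of mesenchymal cells in the complement values was not tested. In bulk libraries, fewer cells of a type and less RNA per cell cannot be told apart. Hepatocyte markers (Alb, Apoa1, Ttr, Serpina1a and Fgb) summed to 0.113 to 1.1 CPM in all 8 libraries, with each at 0 in at least 1. Neutrophil markers summed to 4.76 to 37.2 CPM, lymphocyte markers to 3.74 to 20.5, adipocyte markers to 2.01 to 7.47 and keratinocyte markers to 2.42 to 3.76.

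**Figure D3:**
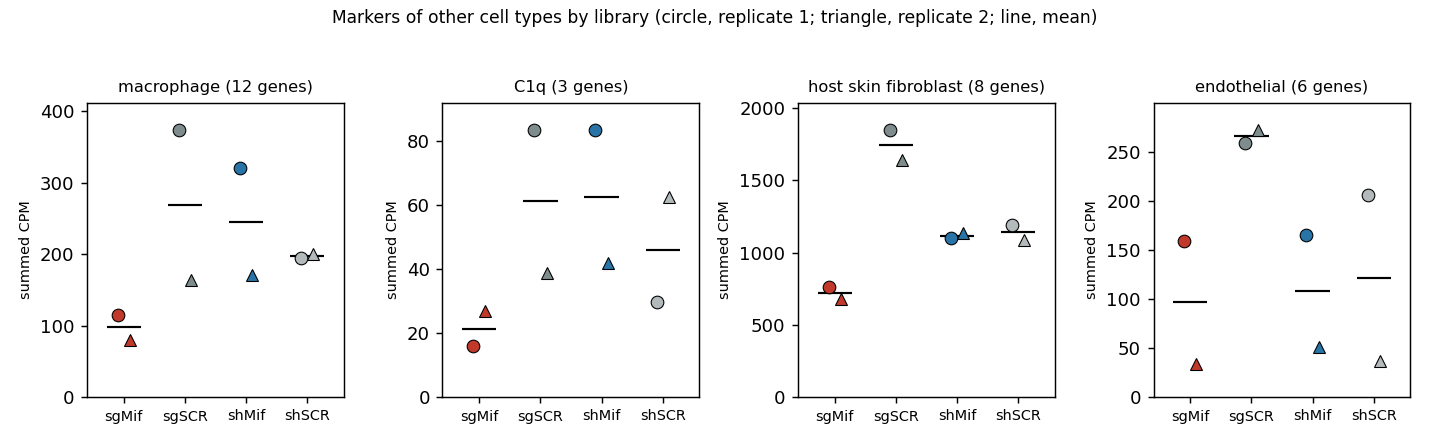
Summed CPM (vertical axes, from 0) of macrophage markers, the 3 C1q genes, host skin fibroblast markers and endothelial markers in the sgMif, sgSCR, shMif and shSCR libraries (horizontal axes); circles are replicate 1, triangles replicate 2 and lines the mean. Macrophage and fibroblast sums are lower in both sgMif than in both sgSCR libraries, while the macrophage and fibroblast sums of shMif and shSCR overlap.

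The second comparison set the libraries labelled shMif against shSCR. All 8 tested members had positive fold changes, where 53% of all genes did, and the median was 0.80 on the log2 scale against 0.03 over all genes. No member passed edgeR's threshold, where 0.0184% of all genes were called higher, and 3 members had an unadjusted p under 0.05, beside 9.26% of all genes. DESeq2 called Serping1, C4b and C1ra higher, where it called 1.12% of genes either way. Both libraries labelled shMif lay above both shSCR libraries, without overlap, for 6 of 8 members, beside 19.4% of all genes. The 6 include Cd55 and Cd46, which had few reads, and Cd46 had 13 reads in both shMif 2 and shSCR 1.

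Serping1 had the largest difference among them, with 42.1 and 35.2 CPM in shMif, against 6.35 and 8.60 CPM in shSCR. Both libraries labelled shMif lay above all 6 others of the series. The means were 38.6 ± 4.9 CPM in shMif and 7.48 ± 1.6 CPM in shSCR (SD, n = 2 each), a log2 fold change of 2.37 ± 0.54 (edgeR adjusted p = 0.41), or 2.73 in the high class, which holds 1 library of each hairpin group. C4b stood at 19.2 and 13.5 CPM in shMif, against 5.73 and 8.03 CPM in shSCR (1.24 ± 0.25, adjusted p = 0.352, 1.74 in the high class). The C4b value was 1.51 without shSCR 2, and the Serping1 value was 2.34 without sgMif 1. Each passed in that fit, which left 1 library in a group and changed how many genes were called.

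C1ra stood at 81.6 and 75.9 CPM in shMif, against 49.0 and 49.0 CPM in shSCR (0.68 ± 0.17, edgeR adjusted p = 0.424, 0.74 in the high class). C1s1 stood at 115 and 107 CPM in shMif, against 97.8 and 71.5 CPM in shSCR (0.39 ± 0.18, adjusted p = 0.553). The 2 proteases were thus both higher without overlap. C3 overlapped between the groups, with 61.2 and 29.4 CPM in shMif, against 32.3 and 22.6 CPM in shSCR (0.72 ± 0.40, adjusted p = 0.608). Cfb overlapped too, with 23.8 and 17.9 CPM in shMif, against 17.4 and 22.1 CPM in shSCR (0.08 ± 0.24, adjusted p = 0.943), and its sign turned without shMif 1 (-0.14) or shSCR 1 (-0.09).

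Of the membrane regulators, Cd55 had 42 and 39 reads in shMif, against 33 and 45 in shSCR, or 2.16 and 1.11 CPM against 0.856 and 0.908 CPM (0.88 ± 0.57, edgeR adjusted p = 0.656). Cd46 had 18 and 13 reads in shMif, against 13 and 14 in shSCR (1.04 ± 0.88, adjusted p = 0.72), and Cd59a had 0 and 2 reads in shMif, against 2 and 7 in shSCR. Differences of Cd46 and Cd59a were not detectable at this depth.

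Macrophage marker sums overlapped here, at 320 and 171 CPM in shMif, against 195 and 200 CPM in shSCR. The C1q sums overlapped too, at 83.4 and 41.8 CPM, against 29.8 and 62.4 CPM. Of the 12 macrophage markers, 11 had positive fold changes (53% of all genes, median 0.28 on the log2 scale), and all overlapped. Host fibroblast marker sums overlapped as well, at 1098 and 1135 CPM in shMif, against 1191 and 1088 CPM in shSCR. Counted gene by gene, however, 6 of the 8 fibroblast markers were higher without overlap (19.4% of all genes), with a median log2 fold change of 1.00. None passed in edgeR, 6 had an unadjusted p under 0.05 (9.26% of all genes) and DESeq2 called 1 (1.12% of all genes). The sum and the median differ because Dcn (0.09) and Pdgfra (-0.22), the most abundant of the 8, moved little. Mesenchymal markers, which do not separate sarcoma cells from mesenchymal cells of the host, also stood higher in shMif. Their sums were 39330 and 53270 CPM, against 29270 and 35460 CPM in shSCR. Of the 8, 6 were higher without overlap and the median log2 fold change was 0.76, near the members' 0.80. None passed in edgeR, 5 had an unadjusted p under 0.05 and DESeq2 called 4 (Col1a1, Col1a2, Col3a1 and Pdgfrb). The part of host fibroblasts and of mesenchymal cell share in the members' values was not tested.

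The difference of effects, guide minus hairpin, was negative for all 8 tested members, where 52.4% of all genes were negative. The median was -1.97 on the log2 scale against -0.04 over all genes. No member passed edgeR's threshold, where 0.092% of all genes did either way, although 7 had an unadjusted p under 0.05 (15.8% of all genes) and DESeq2 called 5 (C4b, C1ra, C1s1, Serping1 and C3) beside 4.01% of all genes. C4b had a difference of -2.56 ± 0.36 (edgeR adjusted p = 0.0681), C1ra of -1.58 ± 0.24 (0.0734) and C1s1 of -1.58 ± 0.25 (0.0744). Serping1 had -3.13 ± 0.75 (adjusted p = 0.162), C3 -2.36 ± 0.57 (0.162), Cfb -1.18 ± 0.34 (0.194) and Cd55 -2.60 ± 0.82 (0.209). The Serping1 value was -4.39 without sgMif 1 and -2.41 without sgMif 2. On leaving out each library in turn, the value ran from -2.81 to -2.27 for C4b. It ran from -1.745 to -1.31 for C1ra and from -1.81 to -1.37 for C1s1. Members passed in some of these fits, which left 1 library in a group and changed how many genes were called. The 4 members C4b, C1ra, C1s1 and Cd55 were lower without overlap in sgMif than in sgSCR and higher without overlap in shMif than in shSCR, as were 5.09% of all genes. For Cd55 these are whole-gene values on few reads, which include the retained-intron transcript. No effect shared by both systems was resolved in the additive fit of both. Its log2 fold changes ran from -0.50 ± 0.265 SE for Cfb to 0.81 ± 0.705 SE for Serping1. No member passed there (0 of 8 at an unadjusted p under 0.05 and 0 by DESeq2), nor did any gene (0% of all genes by edgeR, with 1306 genes or 8.01% at an unadjusted p under 0.05 and 279 or 1.71% called by DESeq2).

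The 2 control groups, neither of which targets Mif, were set against each other because they show how far these genes differ between the systems. This comparison shares the sgSCR libraries with the guide comparison and the shSCR libraries with the hairpin comparison. C4b, C1ra and C3 fell in shSCR relative to sgSCR, 3 of 8 members beside 1.79% of all genes called lower (4.02% either way). Without overlap, 6 of 8 were lower, beside 26.3% of all genes, and DESeq2 called 5 (those 3, C1s1 and Serping1), beside 11.9%.

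C4b had means of 6.88 ± 1.6 CPM in shSCR and 29.5 ± 0.29 CPM in sgSCR (SD, n = 2 each), a 4.28-fold fall (log2 fold change -2.10 ± 0.26, edgeR adjusted p = 0.00908). C1ra had 49.0 ± 0.020 CPM in shSCR and 121 ± 24 CPM in sgSCR, a 2.48-fold fall (-1.31 ± 0.17, adjusted p = 0.0103). C3 had 27.4 ± 6.8 CPM in shSCR and 107.5 ± 22 CPM in sgSCR, a 3.92-fold fall (-1.97 ± 0.41, adjusted p = 0.0417). In the high class the values were -2.36 for C4b, -1.31 for C1ra and -1.73 for C3. The C3 call was lost without sgSCR 1 (adjusted p = 0.137), sgSCR 2 (0.219), shSCR 1 (0.0975) or shSCR 2 (0.0687), that of C4b without sgSCR 1 (0.0569) or sgSCR 2 (0.0719), and that of C1ra without sgSCR 2 (0.078). With counts scaled by transcript length none of the 3 passed, and the C3 value was -1.26.

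C1s1 (-0.76 ± 0.18, edgeR adjusted p = 0.0555), Serping1 (-1.47 ± 0.53, 0.148) and Cd55 (-0.95 ± 0.57, 0.361) were lower without overlap and did not pass. Cfb, with 17.4 and 22.1 CPM in shSCR and 14.5 and 17.65 CPM in sgSCR, overlapped (0.30 ± 0.24, adjusted p = 0.493). The sgSCR libraries thus held the highest levels of C1s1, C1ra, C4b and C3 in the series, above all 6 others, while Cfb and Serping1 were highest in other groups. Whether the sgMif values differ from sgSCR through the guide or through high levels particular to the 2 sgSCR libraries cannot be told apart. Host fibroblast markers were also lower in shSCR, with 7 of 8 without overlap (26.3% of all genes), 4 called lower (1.79%) and a median of -1.46. Of the 8 mesenchymal markers, 6 were lower without overlap with a median of -0.46, while Fn1 was called higher (4.02% of all genes called either way). Macrophage sums overlapped, with 4 of 12 markers lower and 4 higher without overlap, and Cd163 called lower. The part of these cell types was not tested.

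Other genes of the pathway were taken from lists of initiation, amplification and terminal components, regulators and receptors. Of 16 initiation genes, 9 were tested. In sgMif against sgSCR none passed in edgeR, although 6 had an unadjusted p under 0.05 (16.6% of all genes) and DESeq2 called 3, Masp1, C2 and C1qa (6.07% of all genes). The fold change was negative for 8 (50.5% of all genes) and 7 were lower without overlap (24.2% of all genes), with a median of -1.13. In shMif against shSCR 8 had positive fold changes (53% of all genes, median 0.39), and none had an unadjusted p under 0.05 or was called by DESeq2. The most abundant was Masp1, a protease of the lectin pathway (mean 96 TPM over 8 libraries), followed by C1qa (22.8) and C1qb (20.7). Masp1 stood at 93.8 and 62.6 CPM in sgMif, against 158.5 and 149 CPM in sgSCR (-0.98 ± 0.20, edgeR adjusted p = 0.0719). In the hairpin system it was far higher, at 614 and 496 CPM in shMif, against 429 and 387 CPM in shSCR (0.44 ± 0.20, adjusted p = 0.554). Masp1 rose 2.66-fold in shSCR relative to sgSCR (1.41 ± 0.21, adjusted p = 0.0168), which was the opposite direction to C1ra and C4b.

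C2, the partner of C4 in the classical convertase and the neighbour of Cfb, likewise had its higher levels in the hairpin system. It stood at 2.10 and 1.17 CPM in sgMif, against 3.62 and 3.39 CPM in sgSCR (-1.13 ± 0.34, edgeR adjusted p = 0.158). In the hairpin system it stood at 19.4 and 25.2 CPM in shMif, against 13.6 and 19.4 CPM in shSCR, where the groups overlapped (0.43 ± 0.31, adjusted p = 0.683). It rose 4.71-fold in shSCR relative to sgSCR (2.23 ± 0.33, adjusted p = 0.0173). The calls of Masp1 and C2 between controls were lost without sgSCR 1 (adjusted p = 0.106 and 0.0967) or sgSCR 2 (0.137 and 0.126), and with counts scaled by transcript length. In the high class they were 1.48 and 1.96.

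**Figure D4:**
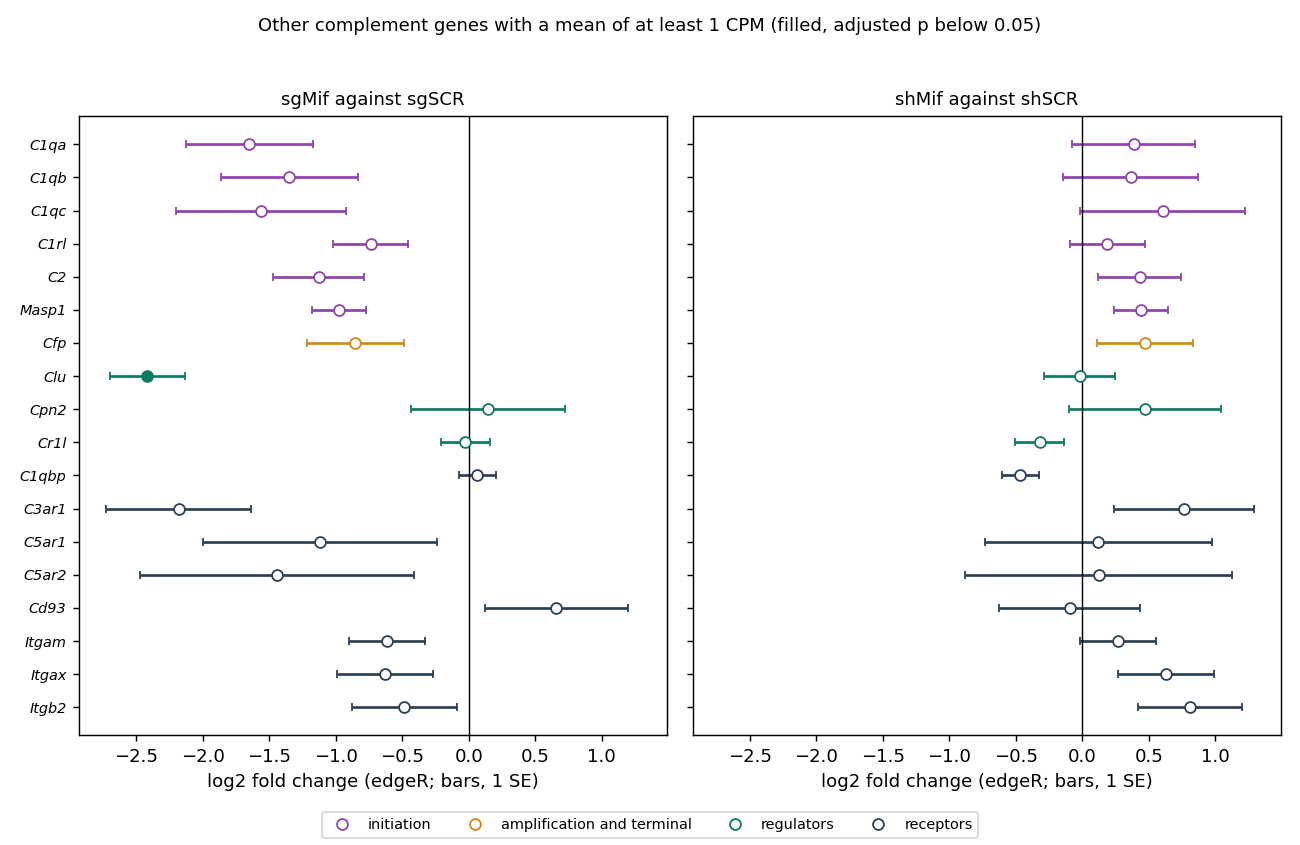
Log2 fold changes (horizontal axes) of 18 other complement genes with a mean of at least 1 CPM (vertical axis), coloured by list, for sgMif against sgSCR (left) and shMif against shSCR (right); bars are 1 SE from edgeR and filled symbols passed an adjusted p of 0.05. Clu is the 1 filled gene, on the left, and C1qbp and Cr1l lie near 0 there.

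Few terminal components were present. Of 9 amplification and terminal genes 2 were tested, and none passed in any comparison by edgeR or DESeq2. Of the 2, 1 had an unadjusted p under 0.05 in the guide comparison (16.6% of all genes) and in the difference of effects (15.8%). Cfp, which encodes properdin, the stabiliser of the alternative convertase, averaged 7.28 TPM (-0.85 ± 0.36 in sgMif, edgeR adjusted p = 0.294), Hc, the gene of C5, averaged 0.537 TPM, and C8g, a chain of C8, 0.285 TPM and was not tested.

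Of 13 regulator genes 8 were tested, and Clu fell in sgMif, 1 of 8 beside 0.619% of all genes called lower. Clusterin, its product, is a secreted chaperone that also binds the terminal complex. Clu stood at 62.1 and 82.8 CPM in sgMif, against 318 and 457 CPM in sgSCR, a 5.34-fold fall (-2.42 ± 0.28, edgeR adjusted p = 0.0199). With a mean of 223 TPM it was the most abundant complement gene of any list. In the hairpin system it overlapped, at 172 and 166 CPM in shMif, against 212 and 130 CPM in shSCR (-0.02 ± 0.27, adjusted p = 0.99). The call was lost without sgMif 1 (adjusted p = 0.107), sgMif 2 (0.142), sgSCR 1 (0.0691) or sgSCR 2 (0.129), and with counts scaled by transcript length (0.135). It was -2.64 in the high class.

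Cr1l encodes Crry, the membrane regulator that in rodents takes on roles of CD46 and CD55, and its mean of 23.5 TPM was far above those of Cd55, Cd59a and Cd46. It stood at 25.7 and 33.6 CPM in sgMif, against 32.1 and 28.4 CPM in sgSCR (-0.03 ± 0.18, edgeR adjusted p = 0.964). The groups overlapped. In shMif it stood at 23.2 and 28 CPM, against 32.6 and 31.4 CPM in shSCR (-0.32 ± 0.18, adjusted p = 0.613).

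Of 10 receptor genes 8 were tested and none passed in any comparison by edgeR. At an unadjusted p under 0.05 there were 1 in sgMif (16.6% of all genes), 1 in shMif (9.26%) and 4 in the difference of effects (15.8%). There were 2 between the controls (3738 of all 16309 genes) and 0 in the additive fit of both systems (8.01%). DESeq2 called C3ar1, the receptor of the C3a fragment on myeloid cells, lower in sgMif (edgeR -2.18 ± 0.55, adjusted p = 0.105) and in the difference of effects. This was 1 of 8 receptors in each, beside 6.07% and 4.01% of all genes called either way. C1qbp, a mitochondrial protein that can bind C1q, averaged 153 TPM (0.06 ± 0.14 in sgMif, edgeR adjusted p = 0.855, and -0.47 ± 0.14 in shMif, adjusted p = 0.457). Itgb2 and Itgam, the chains of complement receptor 3 on myeloid cells, averaged 13.6 and 6.40 TPM and had -0.48 ± 0.40 (adjusted p = 0.571) and -0.61 ± 0.29 (adjusted p = 0.337) in sgMif, where macrophage marker sums were lower too.

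The genes whose profile over the 8 libraries was most like that of C1s1, by the root mean square difference of centred log2 CPM among 11064 genes, were Sphk1 (0.154), Prrg2 (0.161) and Stard5 (0.192). Those most like C1ra were Cyb5r1 (0.16), Lox (0.163) and Rnft2 (0.167). The nearest to Serping1 lay much farther off, at 0.409 for Man2b2, 0.519 for H2-Q7 and 0.527 for Has1. Each likeness rests on 8 libraries of 4 groups that also differ in the classes described above.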

How the data were processed

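Bulk RNA was measured in 8 libraries, 2 in each of the groups sgMif, sgSCR, shMif and shSCR, taken from the sample titles. Per the submitters' processing notes, Trimmomatic and Salmon were used with build mm10, while versions, kit and strandedness are not stated there or in the labels. Per the file headers, the deposited tables hold estimated counts and TPM values, relative to effective length, for 116546 transcripts. Of these 115977 matched GENCODE M21, and the 569 others (0.101 to 0.205% of reads) were left out.

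Estimated counts were summed per gene and rounded, filtered by filterByExpr (minimum count 10, minimum total 15), scaled by TMM and tested with edgeR 4.0.16 (R 4.3.3) in 1 fit of 4 group means, with Benjamini-Hochberg adjustment over 16309 genes at 0.05. The effect shared by both systems was fitted with system and Mif label as 2 additive terms. Cd59a failed the filter, and C4a was not analysed here. Bounds against 0 reads set 3 counts per library and cover counting error only. Overlapping, antisense or near-identical genes are uncertain. DESeq2 1.42.0 and other settings were alternatives, and the fits were tested on simulated data. Members, lists and library classes were chosen with earlier results of these data known. Beyond the members, genes named are the listed complement genes that passed, the 3 most abundant per list (1 regulator is not reported here), copies of members, the 3 nearest profiles for 3 members, while markers, C3ar1 and others outside these were singled out after their values were seen. Sequences were aligned with blastn 2.17.0, and figures drawn with matplotlib 3.10.9.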

Additional observations from a re-analysis of the deposited data

How the results depend on the processing

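In the high class sgMif, shMif and shSCR hold 1 library each and the spread comes from the 2 sgSCR libraries alone, so its counts compare libraries and not conditions. Fold changes of the members kept their sign in all 5 comparisons under every alternative run, except as given here, while counts of calls moved widely. In sgMif against sgSCR, 161 genes and 1 member passed in edgeR. They were 990 and 5 with DESeq2, 1494 and 5 without the filter, 0 and 0 with counts scaled by transcript length, 534 and 4 in the 5 libraries of the high class, and 2 members with the system fitted alone. For shMif against shSCR the 3 genes and 0 members became 182 and 3 with DESeq2, 662 and 4 without the filter, 0 genes with scaled counts or the system alone, and 1162 and 3 in the high class. For the difference of effects the 15 genes and 0 members became 654 and 5 with DESeq2, 1306 and 5 without the filter, 0 genes with scaled counts or protein-coding transcripts, and 999 and 5 in the high class. For shSCR against sgSCR the 655 genes and 3 members became 1948 and 5 with DESeq2, 2425 and 5 without the filter, 77 and 0 with scaled counts, and 2747 and 5 in the high class. In the additive fit of both systems the 0 genes became 279 with DESeq2 and 549 without the filter, where 1 member passed. Leaving out each library in turn gave 0 to 356 genes and 0 to 3 members for sgMif, 0 to 758 and 0 to 1 for shMif, 0 to 527 and 0 to 3 for the difference, 60 to 1848 and 0 to 4 for the controls, and 0 to 1 genes and 0 to 0 members for both systems, the lone library of a group being assumed to vary like the others. The split between higher and lower genes, 60 to 101 for sgMif, 3 to 0 for shMif and 1 to 14 for the difference, was 483 to 507, 128 to 54 and 271 to 383 with DESeq2. The cause of these moves was not tested.

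The sign turned for C4b in the additive fit (0.14 in the high class, and -0.49 to 0.37 on leaving out libraries), for C1ra there (-0.31 to 0.11), for Cfb in shMif (-0.14 to 0.26), for Cd46 in the difference (-1.01 to 0.30) and for Mif in shMif (0.70 between 1 library and 1 in the high class, and -0.59 to 0.55 on leaving out libraries). None of these passed in a fit with replicates in both groups or on leaving out a library. Replicate numbers are shared across groups, but nothing ties same-numbered libraries to 1 mouse or day. Deviations from the group means correlated at 0.182 between same-numbered guide libraries and at 0.263 between hairpin libraries over 16309 genes. With replicate number as a block within systems, 263 genes and 2 members passed for sgMif, 14 genes for shMif, 50 for the difference, and 210 genes and 1 member for the controls, C4b, with C1ra (adjusted p = 0.0501) and C3 (0.0932) no longer past. The depth of 9 to 68 reads per library limits Cd46 and Cd55, and Cd59a had at most 13.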
